A study of Drosophila melanogaster with 6 samples.

Results

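The tetraspanin genes of Drosophila melanogaster were followed in S2-DRSC cells with and without the Hox protein AbdA. Every gene of the count tables whose symbol starts with Tsp and a digit was taken, which gave 35 of 14770 rows. They stand for 34 gene numbers, since Tsp42Eb is listed on chromosome 2R and again as a 21-base piece on the unplaced sequence Uextra. S2-DRSC cells are a line from late embryos with features of blood cells. Polyadenylated RNA was sequenced in 2 libraries of S2-DRSC-HA::AbdA cells (genotype HA::AbdA, here S2-AbdA), which stably carry HA-tagged AbdA, and in 4 libraries of S2-DRSC cells (genotype wild type, here S2). Every culture, with or without the transgene, received copper sulphate (10 µM, 24 h). The labels name neither untreated cells nor a line transfected with an empty construct, so AbdA itself and stable transfection cannot be told apart. The labels do not give the promoter of the transgene or say whether the line is a single clone. Their descriptions name the authors' table of changed genes for the first 2 replicates of each group, and the main comparison is therefore S2-AbdA against S2 replicates 1 and 2, and S2 replicates 3 and 4 were kept as a separate set.

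Tetraspanins are small proteins that cross the membrane several times and carry a large extracellular loop with conserved cysteines. They bind other membrane proteins, among them integrins and membrane proteases, gather them in membrane domains, and direct their traffic through endosomes. Flies have a large family of them, and many lie side by side in a run of genes at cytological position 42E on chromosome 2R. Tsp3A, Tsp26A and Tsp86D belong to the TspanC8 subgroup, which brings the protease Kuzbanian to the cell surface and so acts on Notch. Tsp2A is a component of the smooth septate junction of the gut, Tsp42Ej (also called sunglasses) acts in lysosomal degradation of rhodopsin in photoreceptors, and the 42E member late bloomer (lbm), whose symbol falls outside the naming rule, acts in motor axons when they form synapses.

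The libraries held 47418230 and 46346075 counts in S2-AbdA and 34233132 to 69858688 in S2. Levels below are TMM-scaled CPM, in which the CPM of a gene is divided by its library's TMM factor (trimmed mean of M-values). The transfected gene abd-A stood at 15721 and 10137 TMM-scaled CPM in S2-AbdA, at 27.4 and 49.8 in S2 replicates 1 and 2, and had 0 and 3 counts in S2 replicates 3 and 4. The S2 sets differed widely: 37.0% of the 9375 tested genes differed between S2 replicates 3 and 4 and S2 replicates 1 and 2. Of 8 plasmatocyte marker genes 4 were lower in S2-AbdA than in S2 replicates 1 and 2, and S2 replicates 3 and 4 had 5 lower than that pair. In S2-AbdA against S2 replicates 3 and 4, 3 were higher and 1 lower. Their summed level was 710 and 1031 in S2-AbdA, 1542 and 1357 in S2 replicates 1 and 2, and 574 and 930 in S2 replicates 3 and 4, and srp and Hml were present in all 6 libraries. Of 4 germ line markers 2 were lower in S2-AbdA than in S2 replicates 1 and 2, while against S2 replicates 3 and 4 there was 1 higher and 1 lower, with sums of 5.29 and 8.24 there, 51.0 and 47.1 in S2 replicates 1 and 2, and 4.95 and 2.88 in S2 replicates 3 and 4. For S2-AbdA against S2 replicates 1 and 2, the shares over all tested genes were 7.36% lower and 3.0% higher. With S2 replicates 3 and 4 as the S2 pair, these shares were 17.1% lower and 14.7% higher. Between the S2 sets, 18.9% of all tested genes had a lower level in S2 replicates 3 and 4 and 18.1% a higher one. The part of the marker shifts in the results below was not tested. Whether replicates came from separate cultures is not stated, and p-values therefore reflect the spread among these libraries alone, which may be technical.

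The family's RNA came mostly from 6 genes. Per kilobase of exon, Tsp42Ee was highest, at 720 TMM-scaled CPM per kilobase in S2-AbdA, 631 in S2 replicates 1 and 2 and 646 in S2 replicates 3 and 4. Only 1.37% of the tested genes with a known exonic length had a higher level per kilobase than Tsp42Ee, averaged over the 6 libraries. Tsp42Ed, Tsp42Ef, Tsp3A, Tsp86D and Tsp39D followed, and these 6 together held 89.5% to 95.3% of the summed tetraspanin level of a library.

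**Figure D1:**
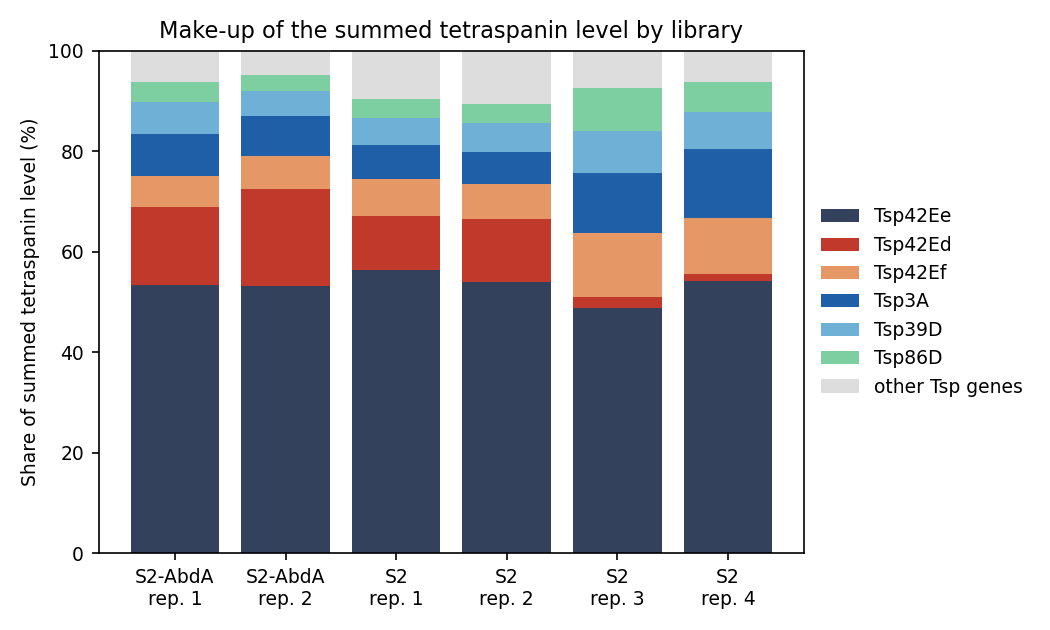
Share (%) of the summed TMM-scaled CPM of the 35 tetraspanin rows taken by each of the 6 genes of highest level per kilobase and by all others, for each of the 6 libraries. Tsp42Ee took 48.9% to 56.4% in every library, while Tsp42Ed took 15.5% and 19.4% in S2-AbdA, 10.7% and 12.5% in S2 replicates 1 and 2, and 2.04% and 1.27% in S2 replicates 3 and 4.

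Tsp42Ee (gene number 35614, dm3 chromosome 2R, 2899759 to 2905867) stood at 1109 and 998 TMM-scaled CPM in S2-AbdA, against 942, 903, 1120 and 769.9 in S2 replicates 1 to 4. The groups overlapped, with a log2 fold change of 0.19 (SE 0.35) in the main comparison described below. Summed over the family, the level was 2075 and 1880 in S2-AbdA, against 1669, 1674, 2292 and 1419 in S2 replicates 1 to 4, which also overlapped. The family as a whole took 0.228% and 0.202% of all counts in S2-AbdA and 0.142% to 0.177% in S2. This share is of counts without TMM factors, such as the 0.752 of S2 replicate 3. It did not overlap between the groups, unlike the scaled sum, and neither was tested.

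The other members were lower. A group of 12 tested genes (Tsp42Eg, Tsp42El, Tsp97E, Tsp42Ea, Tsp66E, Tsp26A, Tsp96F, Tsp29Fa, Tsp5D, Tsp2A, Tsp42Ej and Tsp42Ep) reached at least 1 TMM-scaled CPM in some library. The tested genes Tsp42Ec, Tsp42Eo, Tsp42Ei, Tsp29Fb and Tsp74F stayed under 1 TMM-scaled CPM in every library. The remaining 12 rows had too few counts to be tested, with at most 10 counts in any library: Tsp33B, Tsp42A, Tsp42Eh, Tsp42Ek, Tsp42En, Tsp42Eq, Tsp42Er, Tsp47F and Tsp68C had some counts, and Tsp66A and both rows of Tsp42Eb had 0 in all 6 libraries. At these depths 3 counts, the upper limit that a count of 0 allows, amount to 0.0429 to 0.0876 CPM before TMM scaling, which covers counting error only. The row of Tsp66A spans only 66 bases in the count tables and that of Tsp42Eb on Uextra 21 bases.

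**Figure D2:**
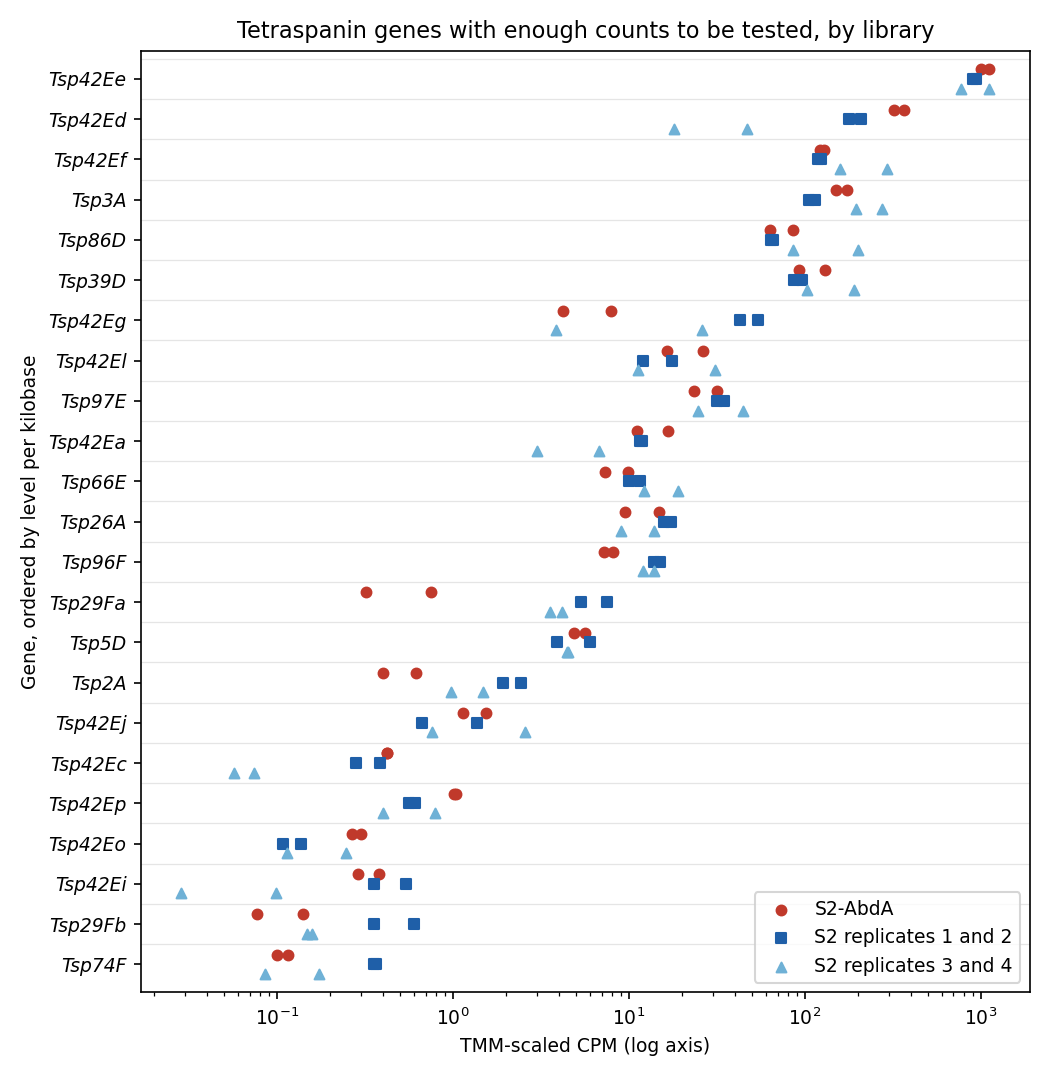
TMM-scaled CPM (log axis) of the 23 tested tetraspanin genes, 1 point per library, with genes ordered by level per kilobase of exon. The exonic lengths of Tsp86D and Tsp42Ep exceed their counted spans, so their places in the order may be too low. Tsp29Fa and Tsp2A lie lower in both S2-AbdA libraries than in all 4 S2 libraries, and Tsp42Ed lies highest in S2-AbdA and lowest in S2 replicates 3 and 4.

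The main comparison asked which genes differ between cells with and cells without the AbdA transgene. Of the 23 tested tetraspanin genes, Tsp29Fa, Tsp29Fb, Tsp2A and Tsp42Eg fell in S2-AbdA relative to the S2 pair of replicates 1 and 2, none rose and 19 did not pass the test (edgeR's quasi-likelihood test, Benjamini-Hochberg adjusted p under 0.10 over all 9375 tested genes). Among all tested genes 7.36% fell and 3.0% rose, 10.4% in either direction. Tsp29Fb had enough counts to be tested only through S2 replicates 1 and 2, the pair where it was highest. DESeq2 also called no tetraspanin gene higher, where it called 347 of the 9375 tested genes higher. The median log2 fold change was 0.07 over the 23 genes and -0.02 over all tested genes. The values of the 19 genes not past the test ran between -1.73 and 1.21. Calls in either direction rose without S2 replicate 3 and without S2 replicate 4, both among the members and among all tested genes. The members added were Tsp74F and Tsp96F as lower and Tsp42Ed as higher. In these fits a single library stands for that S2 set, so the set adds nothing to the spread. The added members are therefore not a result particular to the family. In bulk RNA, fewer cells that express a gene and less RNA per cell cannot be told apart.

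Tsp29Fa (34211, 2L, 8933964 to 8936096) had the largest drop of the family. It had 39 and 16 counts in S2-AbdA, or 0.748 and 0.321 TMM-scaled CPM, against 5.37, 7.56, 4.18 and 3.56 in S2 replicates 1 to 4. Both S2-AbdA libraries lay below all 4 S2 libraries. The level was 12-fold lower than in S2 replicates 1 and 2 (log2 fold change -3.59, SE 0.51, adjusted p = 0.00118). Against S2 replicates 3 and 4 the log2 fold change was -2.85 (SE 0.50, adjusted p = 0.00343). Without S2-AbdA replicate 1, the higher of the pair, these values were -4.32 and -3.59. Without S2-AbdA replicate 2 they were -3.10 and -2.37.

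Tsp29Fb (34212, 2L, 8937390 to 8939746) is its neighbour, with 1293 bases and no other gene of the count tables between them. It was scarce, with 4 and 7 counts in S2-AbdA, against 13, 28, 6 and 11 counts in S2 replicates 1 to 4. Only S2 replicates 1 and 2 carried it past the filter on low counts, so its fall from that pair is not separate support. As TMM-scaled CPM these were 0.0767 and 0.140 in S2-AbdA, against 0.358, 0.604, 0.148 and 0.157 in S2 replicates 1 to 4. Both S2-AbdA libraries were lowest, but by little against S2 replicates 3 and 4. The log2 fold change was -2.14 in the main comparison (SE 0.58, adjusted p = 0.0392) and -0.49 against S2 replicates 3 and 4 (SE 0.63, adjusted p = 0.576), where it did not pass the test. The call was lost without S2 replicate 2 (adjusted p = 0.423), without S2-AbdA replicate 1 (adjusted p = 0.397) and with DESeq2 (adjusted p = 0.168).

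Tsp2A (31080, X, 1240586 to 1242176), the septate junction gene, stood at 0.614 and 0.401 TMM-scaled CPM in S2-AbdA, against 2.45, 1.92, 1.48 and 0.973 in S2 replicates 1 to 4. Both S2-AbdA libraries were below all 4 S2 libraries. Its log2 fold change was -2.10 (SE 0.47, adjusted p = 0.0152) over the first S2 pair. Over S2 replicates 3 and 4 it was -1.26 (SE 0.47, adjusted p = 0.0756). The first call was lost without S2-AbdA replicate 2 (adjusted p = 0.106). The second was lost without any 1 library other than S2 replicate 4, with adjusted p between 0.105 and 0.429, and on library size alone (-0.91, adjusted p = 0.161). The span of Tsp2A lies inside that of CG11418, which had 0.32 on the log2 scale in the main comparison (adjusted p = 0.894), and without a known strand setting reads of the pair cannot be told apart.

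Of 5 tested septate junction genes other than Tsp2A, none passed the test in the main comparison. With S2 replicates 3 and 4 as the S2 pair, where Tsp2A was lower, CG31004 (2.77, SE 0.76, adjusted p = 0.0286) and cora (1.28, SE 0.46, adjusted p = 0.0666) were higher in S2-AbdA and none was lower. Of all tested genes, 14.7% were higher and 17.1% lower there. Ssk stood at 1.69 and 1.74 TMM-scaled CPM in S2-AbdA, against 3.11 and 3.32 in S2 replicates 1 and 2 (log2 fold change -0.91, SE 0.44, adjusted p = 0.346). The change of CG31004, now mesh, in the main comparison was 0.39 on the log2 scale (SE 0.65, adjusted p = 0.937) at under 1 TMM-scaled CPM in every library. Of the 5 gut epithelium markers, Myo31DF and mex1 had enough counts to be tested, and alphaTry, betaTry and Jon65Ai had at most 4 counts in any library. The brush border gene mex1 stood at 0.326 and 0.782 TMM-scaled CPM in S2-AbdA, against 6.39 and 8.25 in S2 replicates 1 and 2 (log2 fold change -3.72, adjusted p = 0.00148) and 0.566 and 0.286 in S2 replicates 3 and 4. The summed level of the gut markers, nearly all of it Myo31DF, was 243 and 315 in S2-AbdA, against 173 and 160 in S2 replicates 1 and 2 and 95.8 and 207 in S2 replicates 3 and 4.

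Tsp42Eg (35616, 2R, 2916416 to 2920738) was the only member of the 42E run that passed in the main comparison. It stood at 7.92 and 4.21 TMM-scaled CPM in S2-AbdA, against 42.8, 54.4, 26.1 and 3.86 in S2 replicates 1 to 4. The S2-AbdA libraries lay below S2 replicates 1 to 3, and S2 replicate 4 lay below both of them. It was 8.0-fold lower than in S2 replicates 1 and 2 (log2 fold change -3.0, SE 0.71, adjusted p = 0.0197), while its value of -1.30 against S2 replicates 3 and 4 (SE 0.67, adjusted p = 0.175) did not pass the test. With all 4 S2 libraries taken as 1 group, the calls of Tsp29Fa, Tsp29Fb, Tsp2A and Tsp42Eg were all lost (adjusted p between 0.146 and 0.648), in a fit that called 46 genes in all.

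The nearest to the threshold among the others were Tsp74F and Tsp96F. Tsp74F had 6 and 5 counts in S2-AbdA, against 13 and 17 counts in S2 replicates 1 and 2 (log2 fold change -1.73, SE 0.58, adjusted p = 0.105), and 7 and 6 counts in S2 replicates 3 and 4. Like Tsp29Fb, it had enough counts to be tested only through S2 replicates 1 and 2. Tsp96F stood at 8.15 and 7.24 TMM-scaled CPM in S2-AbdA, against 13.8, 15.0, 12.1 and 13.9 in S2 replicates 1 to 4. Both S2-AbdA libraries of Tsp96F lay below all S2 libraries, yet its log2 fold changes of -0.91 (SE 0.35, adjusted p = 0.171) and -0.76 (SE 0.35, adjusted p = 0.133) over the separate S2 sets did not pass the test. Of the 23 genes 5 lay lower in both S2-AbdA libraries than in all 4 S2 libraries (Tsp29Fa, Tsp29Fb, Tsp2A, Tsp66E and Tsp96F), where 11.6% of all tested genes did. Another 4 lay higher in both (Tsp42Ec, Tsp42Ed, Tsp42Eo and Tsp42Ep, all in the 42E run), where 12.6% of all tested genes did. Of these, Tsp42Eo had enough counts to be tested only through S2-AbdA, the group where it was highest.

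**Figure D3:**
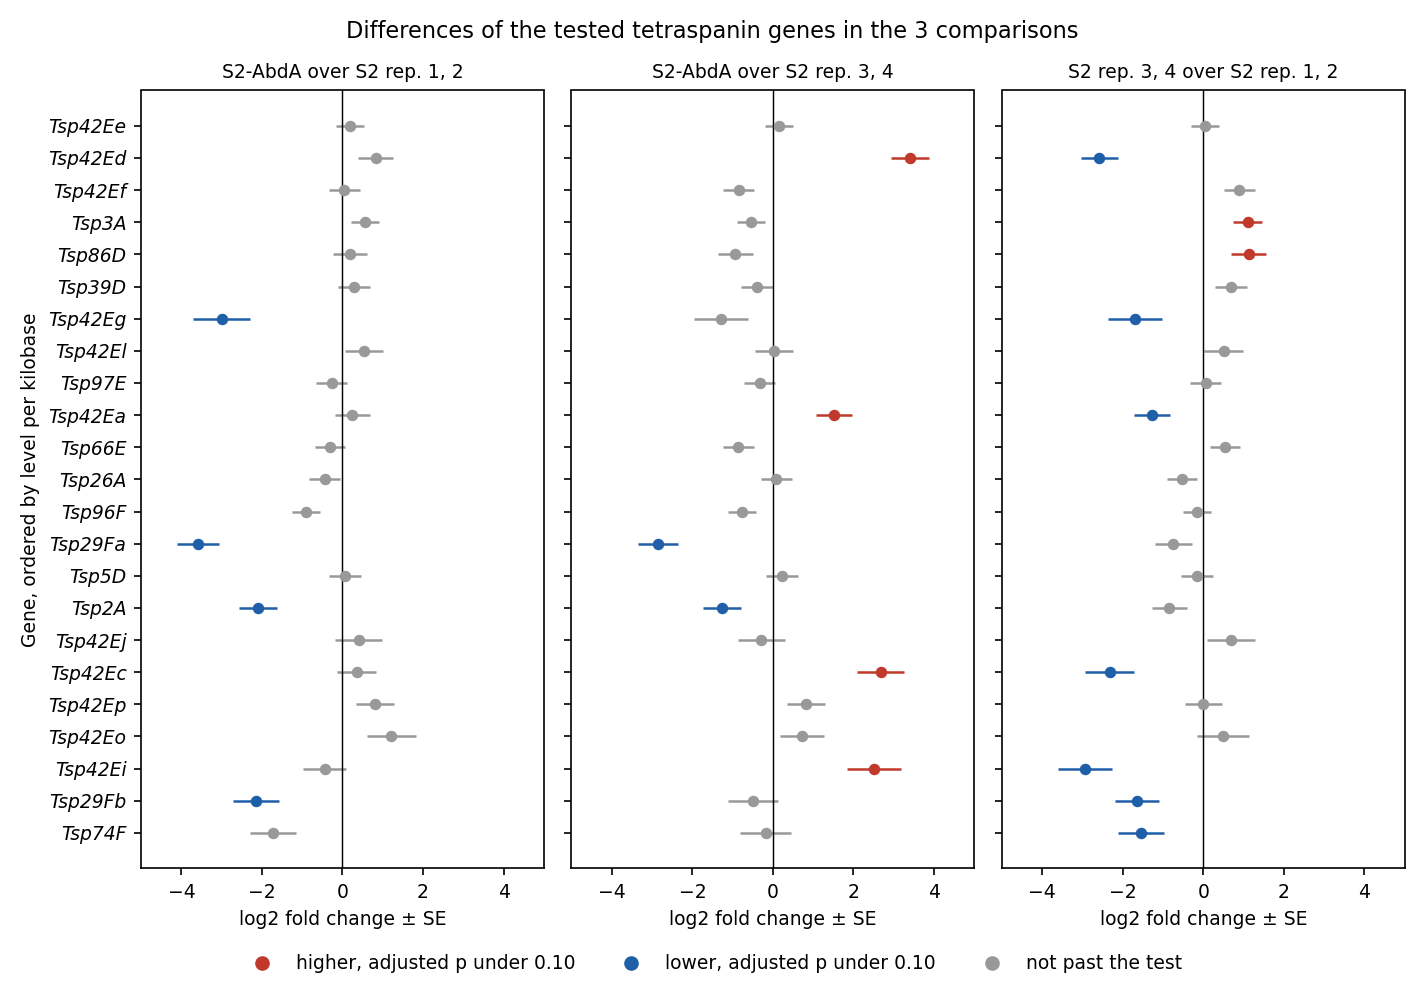
Log2 fold change with its standard error (SE) for the 23 tested tetraspanin genes in 3 comparisons, coloured by the result of the test. Tsp29Fa and Tsp2A were lower in S2-AbdA against either S2 set, while Tsp42Ed, Tsp42Ec, Tsp42Ei and Tsp42Ea passed as higher against S2 replicates 3 and 4. The comparisons share libraries.

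The comparison of S2-AbdA with S2 replicates 3 and 4 shares the S2-AbdA libraries with the main one, so their calls are not independent. Against S2 replicates 3 and 4, Tsp42Ea, Tsp42Ec, Tsp42Ed and Tsp42Ei were higher in S2-AbdA and Tsp29Fa and Tsp2A lower, and 17 genes did not pass the test. Among all tested genes 14.7% were higher and 17.1% lower, 31.8% in either direction, so the share of members called was near that of all genes. Without S2 replicate 4, which leaves S2 replicate 3 alone in its set, calls of lower genes rose both among the members and among all tested genes. With any other library left out they did not rise among the members. The median log2 fold change was -0.29 over the 23 genes and -0.01 over all tested genes. Each of the 4 higher genes lies in the 42E run, and none of them passed the test against S2 replicates 1 and 2.

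Tsp42Ed (35613, 2R, 2897365 to 2899244) was the abundant one of these. It stood at 322 and 365 TMM-scaled CPM in S2-AbdA, against 179 and 209 in S2 replicates 1 and 2 and 46.9 and 18.0 in S2 replicates 3 and 4. The sets did not overlap, with S2-AbdA highest and S2 replicates 3 and 4 lowest. The level in S2-AbdA was 10.6-fold higher than in S2 replicates 3 and 4 (log2 fold change 3.40, SE 0.48, adjusted p = 8.09e-04). Its log2 fold change was 4.25 without S2 replicate 3 and 2.85 without S2 replicate 4. In the main comparison its value of 0.82 (SE 0.44, adjusted p = 0.412) did not pass the test. That value passed without S2 replicate 3 or S2 replicate 4, each of which leaves the other alone in its set.

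Its neighbour Tsp42Ec (35612, 2R, 2893947 to 2896127) was scarce but followed the same order. It had 22 and 21 counts in S2-AbdA, against 14 and 13 in S2 replicates 1 and 2 and 3 and 4 in S2 replicates 3 and 4. The log2 fold change in S2-AbdA was 2.67 over S2 replicates 3 and 4 (SE 0.58, adjusted p = 0.0103) and 0.35 over S2 replicates 1 and 2 (SE 0.48, adjusted p = 0.910). Tsp42Ei (35618, 2R, 2922630 to 2924272) had 15 and 19 counts in S2-AbdA, against 13 and 25 in S2 replicates 1 and 2 and 4 and 2 in S2 replicates 3 and 4. Against S2 replicates 3 and 4 its value reached 2.51 (SE 0.68, adjusted p = 0.0264), which was lost without S2-AbdA replicate 2 (adjusted p = 0.107), and was 3.44 without S2 replicate 3 and 1.71 without S2 replicate 4.

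Tsp42Ea (59178, 2R, 2880181 to 2885476), the first gene of the run, stood at 16.8 and 11.1 TMM-scaled CPM in S2-AbdA, against 11.9 and 11.5 in S2 replicates 1 and 2 and 6.79 and 3.01 in S2 replicates 3 and 4. Against S2 replicates 3 and 4 its log2 fold change reached 1.51 (SE 0.44, adjusted p = 0.0361), with 2.22 without S2 replicate 3 and a lost call without S2-AbdA replicate 1 (adjusted p = 0.153). CG30159 lies within the span of Tsp42Ea and held more counts than it in every library, with a log2 fold change of 0.00 over S2 replicates 3 and 4 (adjusted p = 0.996). Without a known strand setting the counts of Tsp42Ea are uncertain.

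Between the S2 sets, S2 replicates 3 and 4 against S2 replicates 1 and 2, 7 of the 23 genes were lower and 2 higher, and 14 did not pass the test. Among all tested genes 18.9% were lower and 18.1% higher. Without S2 replicate 4, calls of higher genes rose both among the members and among all tested genes. Without S2 replicate 1 or 2, calls in either direction fell both among the members and among all tested genes. This comparison shares S2 replicates 1 and 2 with the main one. Tsp42Ed was lower in S2 replicates 3 and 4 (log2 fold change -2.58, SE 0.46, adjusted p = 0.00261), and so were Tsp42Ec (-2.32, adjusted p = 0.0198), Tsp42Ei (-2.95, adjusted p = 0.0111) and Tsp42Ea (-1.27, adjusted p = 0.0579). Of these, the calls of Tsp42Ed and Tsp42Ei held with any 1 library left out. Their values were -3.42 and -3.87 without S2 replicate 3, and -2.03 and -2.15 without S2 replicate 4. Tsp42Ec did not pass without S2 replicate 1, nor Tsp42Ea without S2 replicate 1 or S2 replicate 2. The value of Tsp42Ea was -1.96 without S2 replicate 3 and -0.77 without S2 replicate 4.

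The other genes that were lower in S2 replicates 3 and 4 were Tsp42Eg, Tsp29Fb and Tsp74F. Tsp29Fb and Tsp74F had enough counts to be tested only through S2 replicates 1 and 2, the pair where they were highest. The value of Tsp42Eg was -1.70 (adjusted p = 0.0824), but its level was 26.1 TMM-scaled CPM in S2 replicate 3 and 3.86 in S2 replicate 4, so the value was -3.65 without S2 replicate 3 and -0.88 without S2 replicate 4. Without S2 replicate 2 its call was lost (adjusted p = 0.186). Tsp29Fb (-1.65, adjusted p = 0.0489) did not pass without S2 replicate 2 (adjusted p = 0.391) or S2 replicate 3 (adjusted p = 0.132). Tsp74F (-1.55, adjusted p = 0.0653) did not pass without S2 replicate 1, 2 or 4 or S2-AbdA replicate 1 (adjusted p between 0.102 and 0.303). Differences between the S2 sets ran with exonic length over all tested genes (Spearman's rho -0.34 across 9317 genes, which are not independent replicates), shorter genes tending to be higher in S2 replicates 3 and 4. In the main comparison the rho was 0.08, and with S2 replicates 3 and 4 as the S2 pair it was 0.39. The part of length in these results was not tested. The 7 tetraspanin genes that were lower there had exonic lengths of 1025 to 2022 bases, under the median of 2039 bases of all tested genes. The family is mostly short, with 16 of the 23 tested members under that median, and the higher genes, Tsp86D and Tsp3A, had 1791 and 1798 bases.

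The higher genes in S2 replicates 3 and 4 were Tsp3A and Tsp86D, both of the TspanC8 subgroup. Tsp3A (31244, X, 2511791 to 2513771) stood at 276 and 195 TMM-scaled CPM in S2 replicates 3 and 4, against 114 and 105 in S2 replicates 1 and 2, and at 173 and 150 in S2-AbdA, between the S2 sets. The log2 difference between the S2 sets was 1.10 (SE 0.36, adjusted p = 0.0439), a call that needed both S2 replicate 1 (adjusted p = 0.216 without it) and S2 replicate 2 (adjusted p = 0.339) and did not hold on library size alone (0.79, adjusted p = 0.101). Tsp86D (41310, 3R, 6694430 to 6695887) stood at 199.8 and 85.3 TMM-scaled CPM in S2 replicates 3 and 4, against 66.3 and 64.6 in S2 replicates 1 and 2, and at 86.3 and 63.2 in S2-AbdA. Its value of 1.12 (SE 0.43, adjusted p = 0.0770) came mostly from S2 replicate 3. Without that library it was 0.39 (adjusted p = 0.349), and it also did not pass without S2 replicate 1 (adjusted p = 0.250), without S2 replicate 2 (adjusted p = 0.349), on library size alone and with upper quartile scaling.

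In S2-AbdA against S2 replicates 1 and 2 the TspanC8 genes did not pass the test. The log2 fold changes were 0.56 for Tsp3A (SE 0.35), 0.19 for Tsp86D (SE 0.43) and -0.44 for Tsp26A (SE 0.38). Their level per kilobase in S2-AbdA was 89.8 for Tsp3A, 41.7 for Tsp86D and 4.03 for Tsp26A, in TMM-scaled CPM per kilobase. The value of Tsp86D is too low, since its exonic length of 1791 bases exceeds its whole counted span of 1458 bases. The protease gene kuz stood at 171 and 126 TMM-scaled CPM in S2-AbdA, against 103, 116, 71.5 and 180 in S2 replicates 1 to 4, and the receptor gene N at 105 and 119 in S2-AbdA, against 206, 152, 29.0 and 71.0 in S2 replicates 1 to 4. Of the 10 tested genes of the list of proteases of this family, Notch, its ligands and the gamma-secretase subunits, none passed the test in the main comparison. In S2-AbdA against S2 replicates 3 and 4, 1 was higher and 1 lower, where 14.7% and 17.1% of all tested genes were. In S2 replicates 3 and 4 against S2 replicates 1 and 2, 2 were higher and 1 lower, where 18.1% and 18.9% of all tested genes were.

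The 42E run put these differences side by side. Within 73.4 kb on chromosome 2R (dm3, 2880181 to 2953618) lie 17 of the members and 7 other genes, lbm among them, and 11 of the 17 members were tested. Between the neighbours Tsp42Ed and Tsp42Ee, the first differed between the S2 sets and the second did not pass any test. There were 29.0 and 36.6 counts of Tsp42Ed per 100 counts of Tsp42Ee in S2-AbdA, against 19.0 and 23.2 in S2 replicates 1 and 2 and 4.18 and 2.34 in S2 replicates 3 and 4. Since both numbers come from the same library, this ratio does not depend on the scaling. Next in the run, Tsp42Ef (35615, 2R, 2912515 to 2915587) stood at 128 and 122 TMM-scaled CPM in S2-AbdA, against 124, 118, 292 and 158 in S2 replicates 1 to 4, and did not pass the test in any of the comparisons (log2 fold change 0.05, SE 0.38, in the main one, and 0.89, adjusted p = 0.101, between the S2 sets). Between the S2 sets it lay at the threshold, and it was called higher with DESeq2 and with no filter on low counts.

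**Figure D4:**
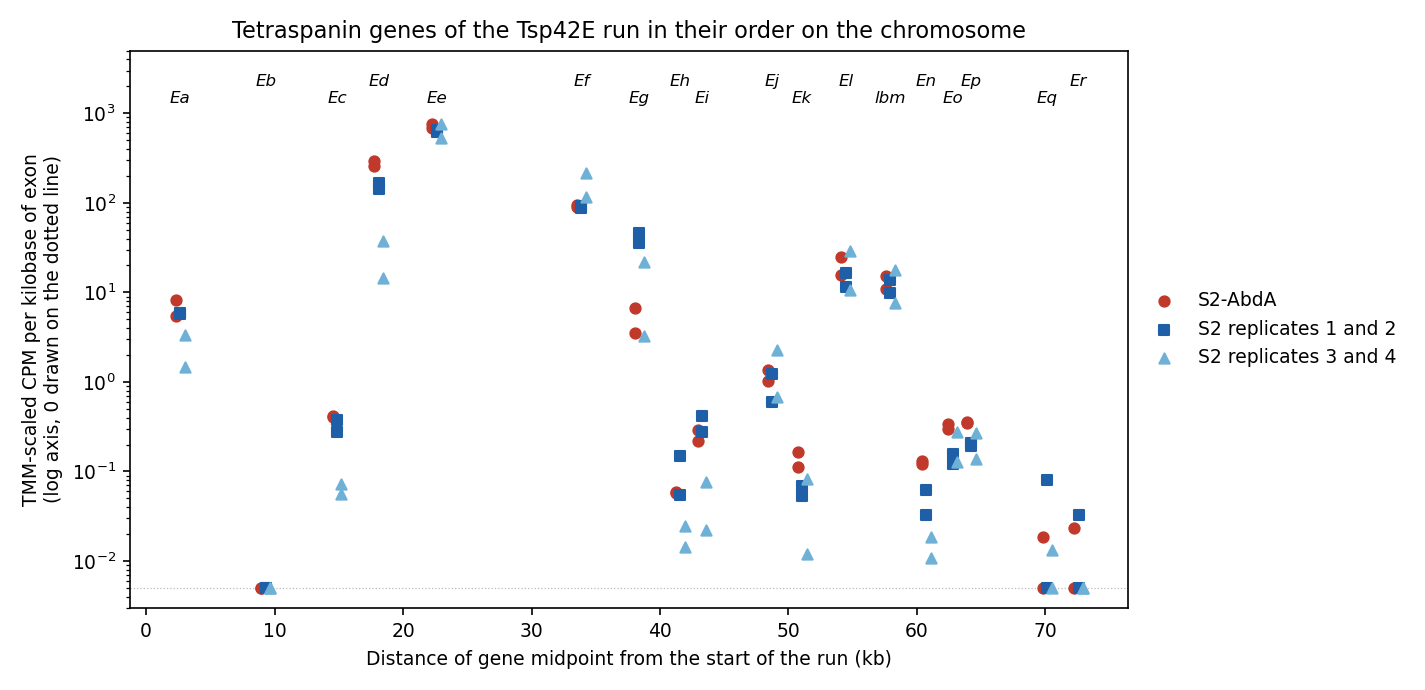
TMM-scaled CPM per kilobase of exon (log axis) of the 17 Tsp42E genes on 2R and of lbm, 1 point per library, against the distance (kb) of the gene's midpoint from the start of the run. The exonic lengths of Tsp42Ep and Tsp42En exceed their counted spans, so their points lie too low. Tsp42Ee is high and close together in all libraries, Tsp42Ed and Tsp42Ec drop in S2 replicates 3 and 4, and Tsp42Eg is low in S2-AbdA and in S2 replicate 4.

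Tsp42Ej, Tsp42El, Tsp42Eo and Tsp42Ep, further along the run, did not pass the test in any of the comparisons. The lysosomal gene Tsp42Ej stood at 1.53 and 1.14 TMM-scaled CPM in S2-AbdA, against 1.38, 0.669, 2.56 and 0.759 in S2 replicates 1 to 4 (log2 fold change 0.40 in the main comparison, SE 0.59). Tsp42El stood at 26.4 and 16.4 in S2-AbdA, against 12.1, 17.6, 31.0 and 11.2 in S2 replicates 1 to 4. Tsp42Ep stood at 1.02 and 1.04 in S2-AbdA, against 0.606, 0.561, 0.788 and 0.401 in S2 replicates 1 to 4, and Tsp42Eo had 14 and 15 counts in S2-AbdA, against 5, 5, 10 and 8. Both S2-AbdA libraries of Tsp42Ep and Tsp42Eo lay above all S2 libraries, and their log2 fold changes of 0.82 and 1.21 over S2 replicates 1 and 2 did not pass the test (adjusted p = 0.478 and 0.363). Only the S2-AbdA libraries carried Tsp42Eo past the filter on low counts. Late bloomer (lbm) stood at 16.9 and 11.97 in S2-AbdA, against 15.3, 10.7, 19.3 and 8.29 in S2 replicates 1 to 4, and its values of 0.15 over S2 replicates 1 and 2 and 0.06 over S2 replicates 3 and 4 did not pass the test. None of the other tested genes inside the run (CG30159, CG43646, CG43647, CR44172 and pgant3) passed in any of the 3 comparisons.

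Outside the run, Tsp39D (35405, 2L, 21344607 to 21358271) stood at 130 and 92.5 TMM-scaled CPM in S2-AbdA, against 86.5, 96.8, 190.4 and 104 in S2 replicates 1 to 4, with a log2 fold change of 0.28 in the main comparison (SE 0.39). Tsp97E stood at 31.7 and 23.4 in S2-AbdA and at 24.8 to 44.4 in S2, Tsp66E at 9.91 and 7.36 in S2-AbdA and at 9.97 to 19.1 in S2, and Tsp5D at 5.60 and 4.87 in S2-AbdA and at 3.93 to 6.03 in S2. None of these 4 genes passed the test in any comparison with all 6 libraries fitted. Besides lbm, RefSeq's synonyms give tetraspanin names to TM4SF and CG31600. TM4SF had 7 and 15 counts in S2-AbdA, against 20, 16, 12 and 20 in S2 replicates 1 to 4, and did not pass the test, and CG31600 had 1 count in all.

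Among genes for proteins that tetraspanins are known to bind, the integrin subunits were the list in which members passed the main test. The αPS2 gene if rose (log2 fold change 4.72, SE 0.44), betaInt-nu (-2.48, SE 0.43) and alphaPS4 (-1.53, SE 0.48) fell, and 4 of the 7 did not pass the test. The list's median was 0.01. Of all tested genes, 3.0% rose and 7.36% fell in the main comparison. With S2 replicates 3 and 4 as the S2 pair, if (4.14, SE 0.42), alphaPS5 (2.78, SE 0.70), scb (1.86, SE 0.38) and betaInt-nu (1.16, SE 0.43, adjusted p = 0.0768) were higher in S2-AbdA and none was lower, so the direction of betaInt-nu turned with the S2 pair, and alphaPS4 (0.22, SE 0.48) did not pass the test. Between the S2 sets alphaPS4, alphaPS5, betaInt-nu and scb were lower in S2 replicates 3 and 4, and none was higher, where 18.9% of all tested genes were lower and 18.1% higher. Among 10 genes of late endosomes and lysosomes and 11 genes of vesicle release none passed in the main comparison, with medians of 0.03 and 0.11. In S2-AbdA against S2 replicates 3 and 4, 1 gene of the first list was lower and none higher, and 3 genes of the second were higher and 1 lower. Of all tested genes, 14.7% were higher and 17.1% lower in that comparison. The lysosomal membrane gene Lamp1 had a log2 fold change of 0.49 (SE 0.39) and the vesicle gene ALiX one of 0.65 (SE 0.38) in the main comparison, where neither passed the test.

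In the authors' deposited table, a list of genes under a false discovery rate (FDR) of 0.10, 7 tetraspanin genes appear. The 4 that fell above are in it, with log2 ratios of S2-AbdA over S2, turned round from the authors' deposited table, of -3.58 for Tsp29Fa, -2.15 for Tsp29Fb, -2.05 for Tsp2A and -2.99 for Tsp42Eg. The authors' deposited table also lists Tsp42Ed (0.83, FDR 0.0339), Tsp74F (-1.70, FDR 0.0367) and Tsp96F (-0.88, FDR 0.0316), which did not pass the test here, where all 6 libraries set the spread. Fitting just the 4 libraries named for that table called the same 7 genes.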

How the data were processed

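The deposited files hold whole-number counts per gene for each library, unnormalized per the file headers. The submitters' processing notes list CASAVA, edgeR and dm3. Aligner, counter, annotation and strand setting were not found in them. A further table that the authors deposited lists 2122 genes with log2 values, p-values and FDR. The column headed logConc ran against the log2 ratio of the counts (S2-AbdA over S2, replicates 1 and 2, r = -0.943 across genes), so it was read as log2 S2 over S2-AbdA and turned round.

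The filter filterByExpr left 9375 of 14770 genes, which were scaled by TMM, with factors of 1.10 and 1.08 for S2-AbdA and 1.06, 1.06, 0.752 and 1.00 for S2 replicates 1 to 4. One model with a mean per set was fitted to all 6 libraries (edgeR 4.0.16 quasi-likelihood F test, robust, R 4.3.3), with Benjamini-Hochberg adjustment over all tested genes. SE was taken as the size of the log2 fold change divided by √F. The fit was tested on data simulated with its own estimates of the spread and with no difference between the S2 sets. That test therefore does not cover the differences seen between those sets. Alternatives were other scalings, no filter, DESeq2 1.42.0, other sets of libraries and leaving out each library. Exonic lengths came from Ensembl release 115 through NCBI gene numbers and cover 14468 genes, with no coordinate taken from it. For Tsp86D (1791 against 1458 bases), Tsp42Ep (2892 against 1342) and Tsp42En (1326 against 1297) this length exceeds the whole counted span. Their levels per kilobase are therefore understated. The members and lists were chosen with earlier results of these data known. Full values are given for members past the main test and for the 6 of highest level per kilobase.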

Additional observations from a re-analysis of the deposited data

Results flagged for a closer look

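Among the 23 tested tetraspanin genes, 1 library stood apart from the other S2 libraries for Tsp39D and Tsp86D, and it was S2 replicate 3 for both. Tsp39D was at 190.4 TMM-scaled CPM in S2 replicate 3, against 86.5 to 104 in the other S2 libraries. Tsp86D was at 199.8 in S2 replicate 3, against 64.6 to 85.3. Gaps of this size relative to the range of 4 libraries arise by chance in about 1 in 20 groups, and 23 genes were examined. That figure takes the 4 libraries as 1 group, while the S2 sets differed at 37.0% of tested genes. On library size alone, without the TMM factor of 0.752 that S2 replicate 3 had, neither gap was large enough to be listed: Tsp39D was then at 143 CPM in S2 replicate 3, against 91.8 to 104, and Tsp86D at 150.2, against 68.3 to 85.3.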

How the results depend on the processing

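Tsp29Fa kept its call under 13 of 14 alternatives in the main comparison and Tsp42Eg under 13, Tsp2A under 12 and Tsp29Fb under 10, and no tetraspanin call changed sign under any alternative run. In the main comparison the count of higher genes was 0, and 1 with a replicate block or with replicates 1 and 2 of both groups only (Tsp42Ed each time), and 0 to 1 leaving out 1 library. The count of lower genes was 4, and 0 with all 4 S2 libraries as 1 group, and 3 to 6 leaving out 1 library. The replicate numbers are not known to pair the samples. The differences between replicates 1 and 2 in S2-AbdA and in S2 correlated at -0.00936 across genes. The block called 1508 genes over all, against 971 in the main fit. Since replicate numbers 3 and 4 occur only in S2, the block also takes those libraries out of the spread. The fit of replicates 1 and 2 of both groups only, without a block, called 1744. Against S2 replicates 3 and 4 the count of higher genes was 4. That of lower genes was 2, with 1 on library size alone and 4 with no filter. Both counts moved with 1 library left out. The count of lower genes rose without S2 replicate 4, and so did that over all tested genes. Between the S2 sets the count of higher genes was 2, with 0 on library size alone and 1 with upper quartile scaling. It rose without S2 replicate 4 and fell without S2 replicate 1, 2 or 3, as did the count over all tested genes. The count of lower genes was 7, with 4 under DESeq2 and 3 to 7 leaving out 1 library. DESeq2 and the fit with no filter each called 3 genes higher between the S2 sets, Tsp42Ef among them. The cause of these shifts was not tested. Library size alone moved the median of all genes to 0.30 against S2 replicates 3 and 4 and to -0.27 between the S2 sets, where 30.4% of calls were higher in place of 48.9%. Against S2 replicates 3 and 4 66.3% were higher on library size alone in place of 46.3%. Over all genes the calls ran from 46 (all 4 S2 libraries as 1 group) to 1829 (without S2 replicate 3) in the main comparison, from 1054 to 5992 against S2 replicates 3 and 4 and from 1048 to 6354 between the S2 sets. Depth limits the scarce genes: Tsp29Fb, Tsp74F, Tsp42Ec, Tsp42Ei and Tsp42Eo stayed under 1 TMM-scaled CPM.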
